A study of Homo sapiens and Mus musculus with 24 samples.

Results

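A set of 44 genes was at a low level or silent in the ΔDNMT3A line of Caco-2 cells, and these genes are described here across 4 Caco-2 lines. Caco-2 cells come from a human colorectal carcinoma and take on features of enterocytes. Members were chosen on CPM, the count of a gene divided by the total count of its library and put on the usual scale: a mean of at least 1 CPM over the 4 wild-type (WT) libraries, and a mean over the 4 ΔDNMT3A libraries of at most 12.5% of the WT mean. The desmosomal gene DSC3 and the claudin gene CLDN6 were left out by name. The 44 members stand among 58051 human gene identifiers, of which 13736 reached 1 CPM in WT. Of the members, 41 are protein coding, CRMA and LINC02675 are long non-coding RNAs, and ENSG00000255864 has no symbol in the reference. The levels in WT and ΔDNMT3A are therefore what chose the genes, and are given as a description with no test.

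The ΔDNMT3A line was made with CRISPR-Cas9 and grown from a single clone. The DNMT3A1 and DNMT3A2 lines carry the long or the short isoform of DNMT3A, tagged with TY1, put back into the knockout cells from a piggyBac vector with a CMV promoter and expanded as clones under puromycin. WT cells carry none of these changes. Each line is 1 clone or 1 culture, so a difference between lines cannot be told apart from a difference between clones. The libraries of a line are 4 samples of WT, 4 of ΔDNMT3A, 3 of DNMT3A1 and 4 of DNMT3A2. Nothing in the labels says that they came from separate cultures, so the p-values measure only the spread between these samples. The mouse samples are EpCAM-positive colonic epithelial cells of Dnmt3a fl/fl mice (4) and Dnmt3a ΔIEC mice (4) at 12 weeks of age, in which villin-Cre deletes the floxed exons in the intestinal epithelium.

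DNMT3A is one of the de novo DNA methyltransferases, enzymes that place methyl groups on cytosines of unmethylated CpG sites. Methylation at CpG-rich promoters is mostly found with silent genes, whereas methylation within transcribed gene bodies accompanies active ones. The 2 isoforms share the catalytic domain, and DNMT3A2 starts from an internal promoter and lacks the N-terminal region of DNMT3A1. No DNA methylation was measured in the files analysed here.

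Library totals over the 15 Caco-2 libraries ranged from 22104408 to 42161299 counts, so that a count of 3 over the pooled libraries of a line equals 0.0219 to 0.0327 CPM. This level, which covers counting error only, was used as the floor. The targeted gene, DNMT3A, was at 66.5 ± 2.25 CPM in WT (SD, n = 4) and 20.5 ± 1.22 CPM in the knockout (SD, n = 4). It was at 38.2 ± 1.38 CPM in DNMT3A1 (SD, n = 3). A mean of 21.4 ± 1.42 CPM (SD, n = 4) was found in the libraries labelled DNMT3A2, and their range of 19.7 to 23.1 CPM overlapped that of ΔDNMT3A, 19.2 to 22.1 CPM. The counts thus do not separate the libraries labelled DNMT3A2 from the knockout by DNMT3A itself, and "DNMT3A2" stands for those libraries throughout. The study itself reports both isoforms as re-expressed at the protein level, by immunoblot and by immunofluorescence in the nuclei. A count of DNMT3A does not say whether its reads came from the edited locus or from the introduced copy. Of 15 enterocyte genes, 13 or 14 were at 1 CPM or more in each line. Of 12 marker genes of blood, endothelial and stromal cells, 5 or 6 were, and their summed level was 81.1 to 87.7 CPM in WT, 48 to 49.2 CPM in the knockout, 59.4 to 62.9 CPM in DNMT3A1 and 47.4 to 49.8 CPM in DNMT3A2. The leukocyte marker PTPRC had 0 counts in WT, ΔDNMT3A and DNMT3A2. The part of these cell type genes in the levels of the 44 genes was not tested.

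**Figure D1:**
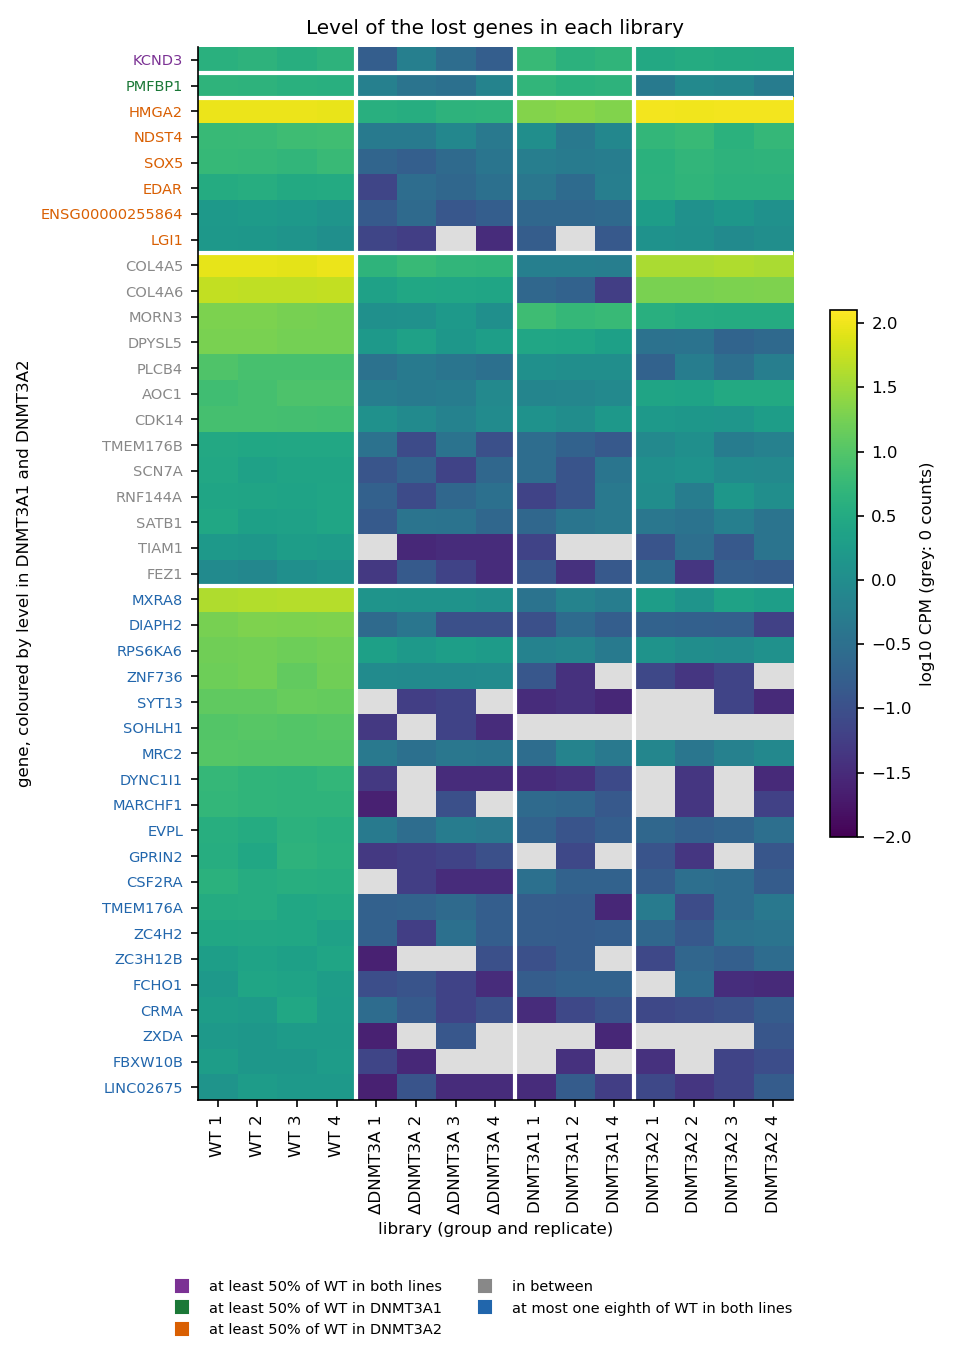
Level of 41 of the 44 lost genes (rows) in the 15 Caco-2 libraries (columns, by line and replicate), as log10 CPM from dark (low) to yellow (high), with grey for 0 counts. Row names are coloured by the level in DNMT3A1 and DNMT3A2. The 6 genes in the third block are again bright in the 4 DNMT3A2 libraries and, apart from HMGA2, dark in the 3 DNMT3A1 libraries, and the 20 in the last block stay dark in both.

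Mean levels in WT ran from 1.02 CPM for FEZ1 to 94.9 CPM for HMGA2, with 13 genes above 10 CPM and 25 under 5 CPM. In ΔDNMT3A the median of the 44 genes was 5.03% of the WT level, and SYT13 was lowest at 0.236%. Just inside the limit of 12.5% were EVPL at 11.7%, PMFBP1 at 11.9% and CDK14 at 12.3% of WT. Just outside it were NTN3 and PLSCR4, both at 12.5% when rounded, and ENSG00000281383 at 13.1%. By WT level, FEZ1 (1.02 CPM) and LGI1 (1.36 CPM) were among those just inside, and CACNA1B (0.978 CPM), RFX6 (0.859 CPM) and EMB (0.795 CPM), which also lost their level, were just outside.

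Where the 44 genes stood after an isoform had been put back was not used to choose them. The median was 5.52% of WT in DNMT3A1 and 11.4% in DNMT3A2. In DNMT3A1, 2 genes were at 50% of WT or more, against 9 in DNMT3A2. KCND3 was the gene at this level in both lines. PMFBP1 reached it in DNMT3A1 alone. In DNMT3A2 alone it was reached by 8 genes, among them HMGA2, NDST4, SOX5, EDAR, LGI1 and ENSG00000255864. Another 21 genes were at 12.5% of WT or less in both lines, among them MXRA8, DIAPH2, RPS6KA6, ZNF736, SYT13, SOHLH1, MRC2, DYNC1I1 and MARCHF1. The other 13 lay in between, with COL4A5 and COL4A6 at 43.9% and 37.5% of WT in DNMT3A2 and 0.654% and 0.308% in DNMT3A1. These shares use the WT mean that also chose the genes, and are descriptions.

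**Figure D2:**
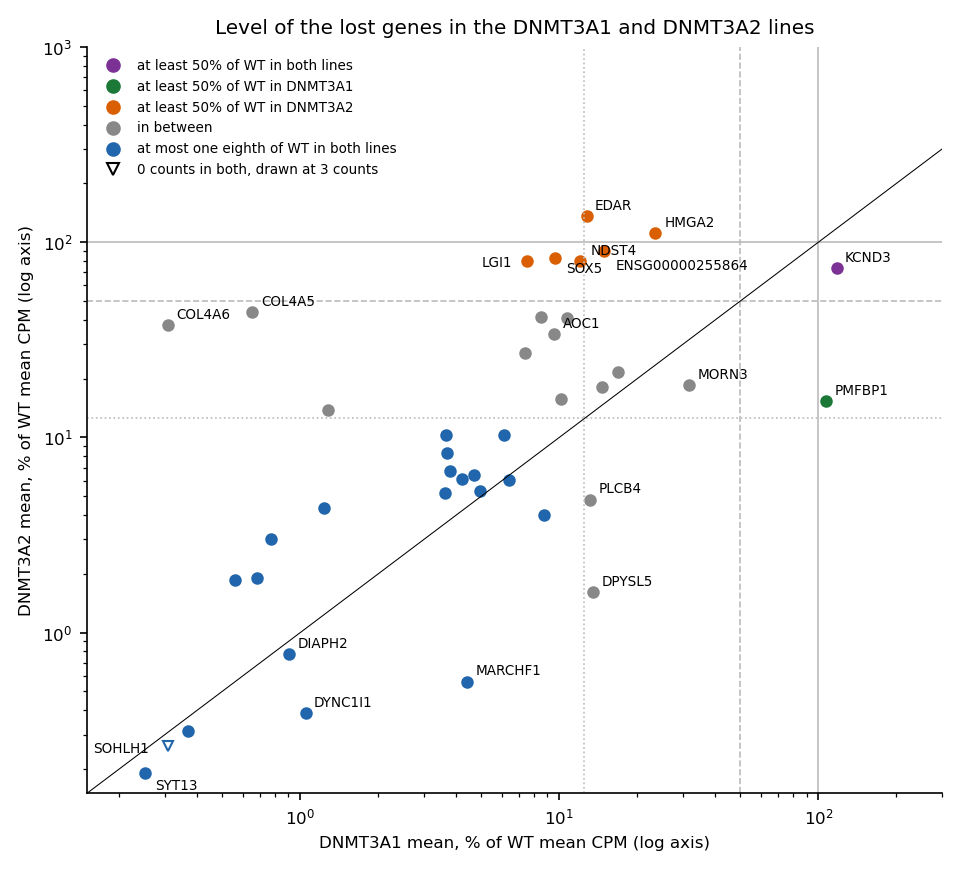
Mean level of 41 of the 44 genes in DNMT3A1 (horizontal, n = 3) and DNMT3A2 (vertical, n = 4) as a percentage of the WT mean CPM (n = 4), on log axes. Dotted, dashed and solid grey lines mark 12.5%, 50% and 100% of WT, the black line marks equal levels, and SOHLH1, with 0 counts in both lines, is drawn at 3 counts. HMGA2 stands at 111% of WT in DNMT3A2, and the points of COL4A5 and COL4A6 lie far above the line of equal levels.

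The comparison of DNMT3A1 with DNMT3A2 asks whether the lines with either isoform differ, and neither of these lines chose the genes. The WT and ΔDNMT3A libraries still entered the fit, through the filter, the normalization and the shared spread. Of 17764 genes tested with edgeR's quasi-likelihood test, 65.6% passed an adjusted p of 0.05, and among the 44 genes 24 did. Of these, 6 were higher in DNMT3A1 (33.5% of all genes were) and 18 were higher in DNMT3A2 (32.0% of all genes were). The shares are not set against each other, since WT, where the 44 genes were chosen to be expressed, carried many of them through the filter on low counts. With the DNMT3A1 and DNMT3A2 libraries alone, 24 of the 44 passed that filter and 21 of those passed the test, 5 higher in DNMT3A1 and 16 higher in DNMT3A2. In that fit a gene low in one line can pass the filter only through the line in which it is high, which favours genes that differ. The share of all genes was not counted there, so these counts are descriptions only. When a change of at least 1 on the log2 scale was also required, 21 of the 44 passed, where 13.8% of all genes did. Here 17 were higher in DNMT3A2, where the share of all genes was 3.99%, and 4 were higher in DNMT3A1, where it was 9.76%. The median log2 fold change of DNMT3A1 over DNMT3A2 was -0.86 over the 44 genes and 0.011 over all genes tested. These shares and medians come from the same fit with WT, so they too are not set against each other. The 24 genes kept their direction within each of the 2 sequencing lanes named in the table headers, which hold replicates 1 and 2 or replicates 3 and 4. Of DNMT3A1, the lane of replicates 3 and 4 holds replicate 4 alone. The same libraries gave the 24 calls, so the lanes are no independent check.

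**Figure D3:**
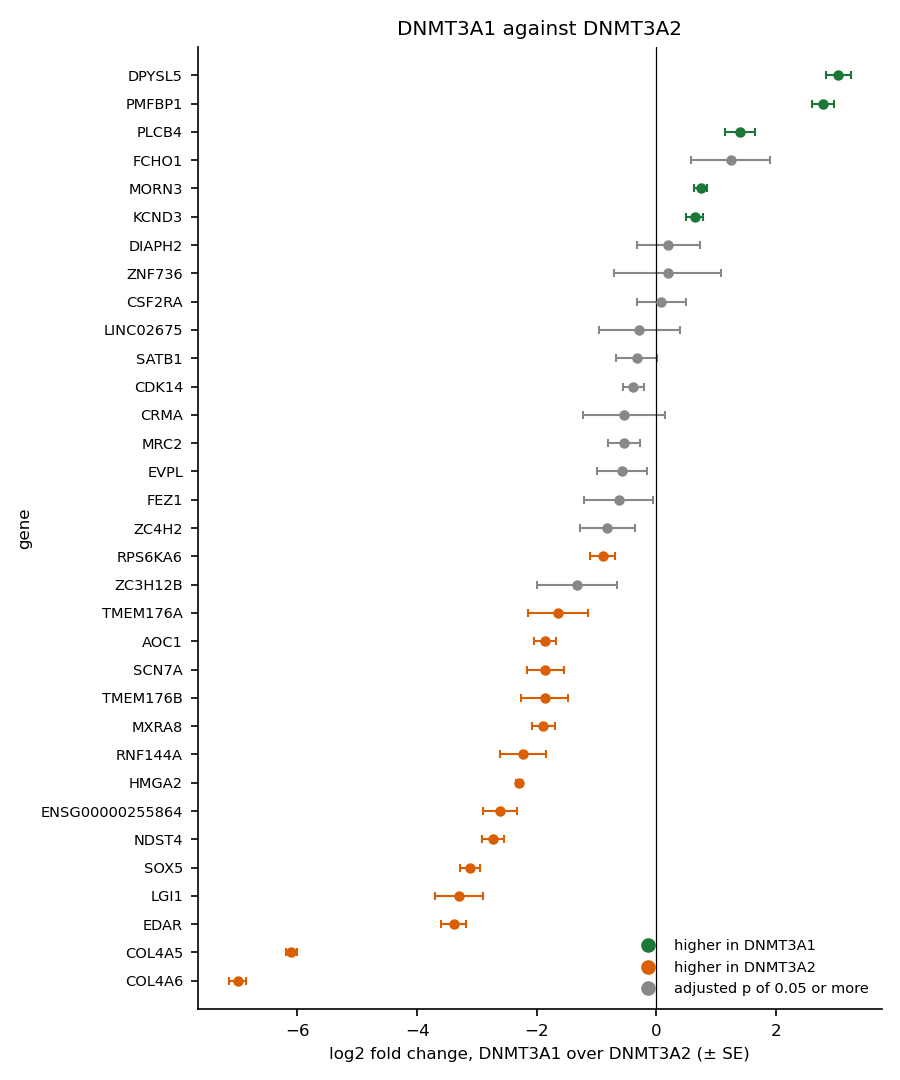
Fitted log2 fold change of DNMT3A1 (n = 3) over DNMT3A2 (n = 4) with its standard error for 33 genes with more than 3 counts over each line. Another 8, with 3 counts or fewer in a line, are left out. Orange points, led by COL4A6 at -7.0, were higher in DNMT3A2, green points, led by DPYSL5 at 3.04, were higher in DNMT3A1, and grey points did not pass an adjusted p of 0.05.

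The isoform lines were also compared with the knockout and with WT. These comparisons share the ΔDNMT3A or the WT libraries with the choice of genes, and the same filter applies, so their counts are given as a description and the shares of all genes are no yardstick for them. Against ΔDNMT3A, 18 of the 44 genes passed in DNMT3A1 (59.9% of all genes did), 10 of them higher and 8 lower, where 30.1% and 29.8% of all genes were. Against the same libraries, 28 passed in DNMT3A2 (64.6% of all genes did), 23 higher and 5 lower, where 32.4% and 32.3% of all genes were. With 2 groups alone, 21 of the 44 genes passed the filter for DNMT3A1 against ΔDNMT3A, with 7 higher and 7 lower, and 25 did for DNMT3A2, with 19 higher and 3 lower. Here too the filter favours genes that are high in one of the 2 groups, and the share of all genes was not counted. Against WT, 63.7% of all genes passed in DNMT3A1 and 64.0% in DNMT3A2. Of the 44 genes, 42 were lower in DNMT3A1 (31.4% of all genes) and 37 were lower in DNMT3A2 (31.0% of all genes). HMGA2 and EDAR were among the 3 genes above WT in DNMT3A2, where 33.0% of all genes were higher.

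The upstream sequences of 4 members are shown as examples. COL4A5 has a start that faces that of COL4A6. SOHLH1 and DYNC1I1 stayed near 0 in both isoform lines, and KCND3 was again at 50% of WT or more in both. None of the 8 genes at this level in DNMT3A2 alone is among them. The sequences are from RefSeq on GRCh38.p14 and give 200 bases that end 50 bases before the start site farthest upstream, read 5′ to 3′ on the gene's strand. Capitals mark CG, the dinucleotide that DNMT3A methylates, which reads the same on both strands.
COL4A5, chrX:108439588-108439787, plus strand: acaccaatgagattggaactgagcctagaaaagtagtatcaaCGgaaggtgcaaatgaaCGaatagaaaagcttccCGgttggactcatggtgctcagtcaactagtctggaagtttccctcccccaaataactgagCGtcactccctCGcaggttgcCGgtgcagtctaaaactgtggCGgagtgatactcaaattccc
SOHLH1, chr9:135699532-135699731, minus strand: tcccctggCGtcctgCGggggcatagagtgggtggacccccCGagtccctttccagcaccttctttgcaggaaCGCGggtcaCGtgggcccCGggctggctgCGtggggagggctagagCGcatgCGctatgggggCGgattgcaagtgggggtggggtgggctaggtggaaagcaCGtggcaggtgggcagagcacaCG
DYNC1I1, chr7:95772304-95772503, plus strand: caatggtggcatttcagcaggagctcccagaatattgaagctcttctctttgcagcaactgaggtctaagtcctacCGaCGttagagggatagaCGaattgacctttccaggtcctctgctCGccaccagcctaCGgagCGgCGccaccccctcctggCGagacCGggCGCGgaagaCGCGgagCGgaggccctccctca
KCND3, chr1:111989719-111989918, minus strand: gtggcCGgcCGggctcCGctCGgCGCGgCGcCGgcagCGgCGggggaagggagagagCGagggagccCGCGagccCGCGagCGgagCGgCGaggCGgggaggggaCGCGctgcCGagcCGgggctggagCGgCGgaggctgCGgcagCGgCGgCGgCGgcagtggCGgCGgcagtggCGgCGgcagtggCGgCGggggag

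These stretches hold 7 CG in COL4A5, 13 in SOHLH1, 14 in DYNC1I1 and 36 in KCND3. Among 27305 RefSeq windows of the same length, 1 a gene, the median was 7. At least as many CG as in COL4A5 were found in 52.3% of windows, as in SOHLH1 in 37.0%, as in DYNC1I1 in 34.2% and as in KCND3 in 0.7%. RefSeq windows were matched for 32 of the 44 genes (72.7%), under the 80% needed, so no comparison of base content over the set was made.

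SYT13, SOHLH1, DYNC1I1 and MARCHF1 lost their level most completely, and neither isoform line brought any of them above 5% of WT. SYT13 (chr11:45240301-45286319, GRCh38) encodes an atypical synaptotagmin, a membrane protein of vesicle traffic that lacks the calcium binding of its relatives. Its WT libraries had 12.6, 12.5, 14.1 and 13.7 CPM, and its ΔDNMT3A libraries 0, 0.0586, 0.0661 and 0 CPM. The whole of DNMT3A1 held 3 counts and the whole of DNMT3A2 another 3, both at the floor, so no fold between them is given. Against the 1690 counts in WT, the ratio WT over DNMT3A1 was 405 with a 95% exact counting interval from 138 to 1966. Leaving out SYT13, which was chosen on these libraries, 13 of the 22 synaptotagmins and synaptotagmin-like genes were tested in ΔDNMT3A against WT, of which 7 were higher and 2 lower. In this contrast, which the gene lists below share, 59.9% of all genes tested passed, 31.2% higher and 28.8% lower. SYT7, a calcium sensor of lysosome and granule exocytosis, went from 7.65 ± 0.652 (SD, n = 4) to 2.65 ± 0.503 CPM (SD, n = 4), and SYTL2, a Rab27 effector, from 179 ± 1.91 to 313 ± 15.7 CPM (SD, n = 4 each). SYT13 was the one synaptotagmin in the set.

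SOHLH1 (chr9:135693407-135699528) encodes a basic helix-loop-helix factor that germ cells need for spermatogonial differentiation and early follicle growth. In WT it was at 10.2, 11, 10.1 and 11 CPM, and in ΔDNMT3A at 0.0474, 0, 0.0661 and 0.0331 CPM, a total of 5 counts. No read of it was counted in the 3 DNMT3A1 or the 4 DNMT3A2 libraries. Against a floor of 3 counts, WT was at least 323-fold higher than DNMT3A1 and at least 383-fold higher than DNMT3A2. The 5 counts in ΔDNMT3A are too few to bound its fold over the isoform lines, so none is given. Both isoform lines were still called lower than ΔDNMT3A (edgeR quasi-likelihood test, adjusted p = 0.0395 and 0.0278), a difference of few reads. These calls are among the genes counted above as lower than the knockout. SOHLH2, its partner in germ cells, had 0 counts in every line. Of 36 germ cell and meiosis genes, 14 other than SOHLH1 were tested in ΔDNMT3A against WT, with 2 higher and 5 lower. TEX15, a gene of germline transposon silencing, went from 1.06 to 0.323 CPM, and PIWIL2, a piRNA-binding Argonaute, from 7.37 to 13.7 CPM. Of 18 cancer testis genes, 1 was tested, SSX1, which was higher in ΔDNMT3A (0.217 ± 0.0416 against 0.0252 ± 0.0171 CPM, SD, n = 4 each). Its WT level was close to the WT floor of 0.0235 CPM, and no counting interval was computed for it. None of the 18 is in the set.

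DYNC1I1 (chr7:95772506-96110322) encodes an intermediate chain of cytoplasmic dynein 1, the motor that moves cargo toward microtubule minus ends. It is the form of neurons and testis, whereas DYNC1I2 is made in most cells. The WT libraries had 5.30, 4.84, 4.60 and 5.13 CPM, those of ΔDNMT3A had 0.0474, 0, 0.0330 and 0.0331 CPM, those of DNMT3A1 had 0.0328, 0.0386 and 0.0849 CPM, and those of DNMT3A2 had 0, 0.0452, 0 and 0.0313 CPM. All knockout-derived libraries lay under 0.1 CPM, and the 5 counts in DNMT3A1 and 2 in DNMT3A2 gave a ratio of 2.96 with a 95% counting interval from 0.485 to 31.1. DYNC1I2 was at 117 ± 0.886 CPM in WT (SD, n = 4), 132 ± 1.73 CPM in the knockout (SD, n = 4) and higher again in DNMT3A1 (141 CPM) and DNMT3A2 (154 CPM). Of the 17 listed dynein subunits, 15 other than DYNC1I1 were tested, and in ΔDNMT3A against WT 7 were higher and 4 lower with a median log2 fold change of 0.01. DYNC1I1 was the one dynein subunit in the set.

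MARCHF1 (chr4:163524298-164384050) encodes a membrane-bound RING-CH ubiquitin ligase, best known for removing MHC class II and CD86 from the surface of antigen-presenting cells. It was at 5.21, 4.76, 4.60 and 4.66 CPM in WT and had 4 counts in all over the ΔDNMT3A libraries. The 3 DNMT3A1 libraries had 0.263, 0.231 and 0.141 CPM, each above the highest ΔDNMT3A library at 0.0991 CPM, while DNMT3A2 had 3 counts in all. The ratio of DNMT3A1 to DNMT3A2 was 7.50 with a 95% counting interval from 2.21 to 39.6, and the edgeR test passed (adjusted p = 0.00163). Even so, DNMT3A1 held 4.41% of the WT level. Of 11 MARCHF ligases, 7 other than MARCHF1 were tested in ΔDNMT3A against WT, with 3 higher and 3 lower, and MARCHF5, a mitochondrial ligase, went from 39.7 to 25.7 CPM.

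The matrix genes of the set were COL4A5, COL4A6, MXRA8, MRC2 and NDST4, and 4 of the 5 were higher in DNMT3A2 than in DNMT3A1. This and the other functional groups below were drawn up after the values were seen, so counts within them are descriptions. Of all genes tested, 32.0% were higher in DNMT3A2 and 33.5% in DNMT3A1, shares that are no yardstick for these groups. COL4A5 (chrX:108439844-108697545, plus strand) and COL4A6 (chrX:108155607-108439497, minus strand) encode the α5 and α6 chains of type IV collagen, which assemble in basement membranes. Their annotated genes point away from each other with 346 bases between them, and the RefSeq starts lie 379 bases apart. COL4A5 was at 87.4, 87.2, 85.7 and 93.8 CPM in WT, 4.60, 5.72, 5.09 and 4.89 CPM in the knockout, 0.591, 0.579 and 0.566 CPM in DNMT3A1 and 38.5, 38.5, 40.2 and 38.4 CPM in DNMT3A2. COL4A6 was at 52.5, 51.7, 50.5 and 52.7 CPM in WT, 2.25, 2.81, 2.64 and 2.58 CPM in the knockout, 0.230, 0.193 and 0.0566 CPM in DNMT3A1 and 18.8, 19.1, 19.3 and 20.6 CPM in DNMT3A2. The pair thus held the same order of lines, WT over DNMT3A2 over ΔDNMT3A over DNMT3A1, with no overlap between neighbouring lines. The log2 fold change of DNMT3A1 over DNMT3A2 was -6.10 ± 0.0950 (SE, adjusted p = 2.02e-29) for COL4A5 and -7.0 ± 0.148 (SE, adjusted p = 2.56e-26) for COL4A6. Against the knockout itself DNMT3A1 was lower by log2 fold changes of -3.14 and -4.05, and DNMT3A2 was higher by 2.96 and 2.94.

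MXRA8, a membrane protein with immunoglobulin-like domains that serves as an entry receptor for arthritogenic alphaviruses, stood at 41.5, 42.9, 43.7 and 43.3 CPM in WT and 1.33, 1.26, 1.29 and 1.12 CPM in the knockout. It stayed low in DNMT3A1, at 0.361, 0.694 and 0.538 CPM, and in DNMT3A2, at 1.90, 1.31, 2.30 and 1.97 CPM. The 2 lines differed by -1.89 ± 0.197 on the log2 scale (SE, adjusted p = 8.04e-10), although both were below 5% of WT. MRC2, a collagen-binding endocytic receptor, was at 10.2 ± 0.106 CPM in WT (SD, n = 4) and 0.40 ± 0.0562 CPM in the knockout (SD, n = 4). It was at 0.481 ± 0.201 CPM in DNMT3A1 (SD, n = 3) and 0.656 ± 0.184 CPM in DNMT3A2 (SD, n = 4), which did not pass (adjusted p = 0.0712). NDST4 adds sulfate to heparan sulfate chains. It returned to 5.22, 5.79, 4.11 and 5.42 CPM in DNMT3A2, beside 5.76, 6.12, 6.70 and 7.01 CPM in WT, and stayed at 1.05, 0.463 and 0.792 CPM in DNMT3A1. Its difference between the isoform lines was -2.74 ± 0.184 (log2, SE, adjusted p = 4.37e-14).

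Among 8 genes of gene regulation, HMGA2 and SOX5 were higher in DNMT3A2 than in DNMT3A1, none was higher in DNMT3A1, and 6 did not pass. HMGA2 (chr12:65824131-65966295) is an architectural chromatin protein of embryonic tissue that many carcinomas make again, and a target of let-7 microRNAs. Its levels were 94.0, 97.1, 94.8 and 93.5 CPM in WT, 3.79, 3.63, 4.39 and 4.66 CPM in the knockout, 21.7, 23.4 and 21.2 CPM in DNMT3A1 and 105, 101, 108 and 108 CPM in DNMT3A2. DNMT3A1 thus lay between the knockout and WT, and each DNMT3A2 library lay above the highest WT library. The difference between the isoform lines was -2.30 ± 0.0445 (log2, SE, adjusted p = 3.08e-27), and DNMT3A2 exceeded WT by 0.23 ± 0.0346 (log2, SE, adjusted p = 9.95e-07).

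SOX5, a SoxD factor of cartilage and nervous system, showed 5.64, 5.33, 5.03 and 6.06 CPM in WT and 0.213, 0.176, 0.264 and 0.397 CPM in the knockout. DNMT3A1 had 0.558, 0.501 and 0.538 CPM and DNMT3A2 had 4.10, 5.07, 4.42 and 4.64 CPM. Both lines lay above the knockout, DNMT3A1 at 9.66% and DNMT3A2 at 82.7% of WT, with a difference of -3.12 ± 0.171 (log2, SE, adjusted p = 3.60e-16). ZNF736, a KRAB zinc finger protein, went the other way: it had 15.7, 16.7, 13.1 and 16 CPM in WT and 0.949, 0.909, 0.925 and 0.959 CPM in the knockout, but 5 counts in all in DNMT3A1 and 5 in DNMT3A2. Both isoform lines were below the knockout, by log2 fold changes of -4.02 ± 0.437 (SE) and -4.21 ± 0.426 (SE). The chromatin organizer SATB1, the X-linked zinc finger genes ZC4H2, ZC3H12B and ZXDA, and SOHLH1 above make up the group, with DNMT3A2 means from 0 to 18.0% of WT. SATB1 was at 2.43 ± 0.30 CPM in WT (SD, n = 4) and 0.280 ± 0.113 CPM in the knockout (SD, n = 4), with 0.356 and 0.439 CPM in the isoform lines. It overlaps TBC1D5 on the same strand, a gene at 62.5 CPM in WT and 38.6 CPM in the knockout, so some reads cannot be assigned to one of them.

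Of 5 genes of excitable membranes, among them KCND3, SCN7A, LGI1 and SYT13, 3 were higher in DNMT3A2 than in DNMT3A1 and KCND3 was higher in DNMT3A1. KCND3 (chr1:111770662-111989155) encodes the potassium channel Kv4.3, which carries a fast inactivating current in heart and neurons. Its libraries had 4.01, 4.46, 3.74 and 4.55 CPM in WT, 0.166, 0.586, 0.297 and 0.165 CPM in the knockout, 5.72, 4.32 and 4.75 CPM in DNMT3A1 and 2.94, 3.35, 3.10 and 3.01 CPM in DNMT3A2. DNMT3A1 overlapped WT (log2 fold change 0.27 ± 0.131, SE, adjusted p = 0.0700), and DNMT3A2 lay below WT (-0.37 ± 0.134, SE, adjusted p = 0.0178). The isoform lines differed by 0.64 ± 0.140 in favour of DNMT3A1 (log2, SE, adjusted p = 0.000201).

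LGI1, a secreted protein of synapses, and SCN7A, a sodium channel that responds to extracellular sodium, were partly or largely back in DNMT3A2. LGI1 was at 1.53, 1.46, 1.35 and 1.08 CPM in WT and at 1.24, 1.13, 0.905 and 1.07 CPM in DNMT3A2, while the other lines had 6 counts (ΔDNMT3A) and 10 counts (DNMT3A1) in all. SCN7A was at 2.51 ± 0.249 CPM in WT (SD, n = 4), 0.155 ± 0.0766 CPM in the knockout (SD, n = 4), 0.269 ± 0.142 CPM in DNMT3A1 (SD, n = 3) and 1.02 ± 0.177 CPM in DNMT3A2 (SD, n = 4). The difference of DNMT3A1 over DNMT3A2 was -3.30 ± 0.40 for LGI1 and -1.86 ± 0.308 for SCN7A (log2, SE, adjusted p = 1.71e-08 and 4.24e-06).

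The 8 cytoskeleton genes, among them DIAPH2, DPYSL5, DYNC1I1, EVPL, GPRIN2, TIAM1 and FEZ1, mostly stayed low, with medians of 2.75% of WT in DNMT3A1 and 4.02% in DNMT3A2. DIAPH2 (chrX:96684663-97604997), a formin that nucleates actin filaments, had 18.4, 20.4, 19.7 and 20.6 CPM in WT and from 0.0627 to 0.410 CPM in the 11 other libraries, in which the lines overlapped. DPYSL5, a collapsin response mediator of growing axons, was at 18.8, 18.5, 17.8 and 17.6 CPM in WT and 1.61, 2.20, 1.49 and 1.98 CPM in the knockout. It was at 2.66, 2.55 and 2.18 CPM in DNMT3A1 but 0.348, 0.362, 0.209 and 0.251 CPM in DNMT3A2, which was thus below the knockout. Its difference of 3.04 ± 0.209 (log2, SE, adjusted p = 7.85e-14) was the widest in favour of DNMT3A1 among genes with more than 3 counts in each line. TIAM1, an exchange factor for Rac, had 1.71 ± 0.200 CPM in WT (SD, n = 4), 3 counts in all in ΔDNMT3A, 2 in DNMT3A1 and 26 in DNMT3A2. The ratio of DNMT3A2 to DNMT3A1 was 11 with a 95% counting interval from 2.75 to 95.4, and the edgeR test passed (adjusted p = 0.000448). EVPL, envoplakin of the cornified envelope and desmosomes, had 3.81 ± 0.382 CPM in WT (SD, n = 4) and 0.446 ± 0.105 CPM in the knockout (SD, n = 4), and was lower still in DNMT3A1 (0.161 CPM) and DNMT3A2 (0.234 CPM, adjusted p = 0.000820 and 0.0144 against ΔDNMT3A). GPRIN2 and the kinesin adaptor FEZ1 had DNMT3A1 and DNMT3A2 means of at most 0.162 CPM and did not differ past the threshold.

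The 5 signalling genes were RPS6KA6, PLCB4, CDK14, CSF2RA and EDAR. RPS6KA6 (chrX:84058346-84187907), the ribosomal S6 kinase RSK4, was at 16.2, 17.1, 15.8 and 16.7 CPM in WT, 2.11, 1.64, 2.02 and 1.79 CPM in the knockout, 0.657, 0.733 and 0.481 CPM in DNMT3A1 and 1.28, 1.04, 0.939 and 1.19 CPM in DNMT3A2. Both isoform lines thus lay below each knockout library, by -1.65 ± 0.176 and -0.75 ± 0.144 (log2, SE). EDAR, the receptor for ectodysplasin in hair and tooth development, had 3.31, 3.60, 3.12 and 3.17 CPM in WT, 0.0712, 0.293, 0.231 and 0.331 CPM in the knockout, 0.427, 0.270 and 0.566 CPM in DNMT3A1 and 4.33, 4.84, 4.38 and 4.36 CPM in DNMT3A2. Each DNMT3A2 library was above the highest WT library, with a log2 fold change over WT of 0.51 ± 0.125 (SE, adjusted p = 0.000642), and DNMT3A1 over DNMT3A2 was -3.39 ± 0.203 (log2, SE, adjusted p = 3.01e-15).

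PLCB4, a phospholipase C of G protein signalling, had 9.28, 8.03, 8.08 and 8.20 CPM in WT and 0.356, 0.469, 0.396 and 0.331 CPM in the knockout. DNMT3A1 was above both the knockout and DNMT3A2 at 1.15, 1.08 and 1.08 CPM, where DNMT3A2 had 0.193, 0.543, 0.313 and 0.564 CPM (1.40 ± 0.249 on the log2 scale, SE, adjusted p = 1.30e-05). CDK14, a cyclin-dependent kinase of Wnt receptor phosphorylation, was at 7.56 ± 0.256 CPM in WT (SD, n = 4), 0.929 ± 0.215 CPM in the knockout (SD, n = 4), 1.27 ± 0.244 CPM in DNMT3A1 (SD, n = 3) and 1.63 ± 0.231 CPM in DNMT3A2 (SD, n = 4), and the isoform lines did not differ past the threshold (adjusted p = 0.0580). It overlaps CLDN12 on the same strand. CSF2RA, the α chain of the GM-CSF receptor, lies in the pseudoautosomal region. It was at 3.76 ± 0.292 CPM in WT (SD, n = 4) with 4 counts in all in ΔDNMT3A, and rose above the knockout in both isoform lines, to 0.240 and 0.227 CPM (log2 fold changes 2.85 ± 0.593 and 2.78 ± 0.582, SE).

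Of the 8 genes of membrane traffic and enzymes, 5 were higher in DNMT3A2 than in DNMT3A1. AOC1, diamine oxidase, which degrades histamine in the gut, was at 6.98, 7.69, 9.07 and 8.94 CPM in WT and 0.546, 0.498, 0.529 and 0.860 CPM in the knockout. It stayed at 0.723, 0.771 and 0.849 CPM in DNMT3A1 and rose to 2.51, 2.35, 3.10 and 3.04 CPM in DNMT3A2. TMEM176A and TMEM176B, a pair of membrane proteins beside AOC1, had 3.17 and 2.85 CPM in WT, 0.206 and 0.227 CPM in the knockout, 0.116 and 0.210 CPM in DNMT3A1 and 0.328 and 0.771 CPM in DNMT3A2. The log2 difference of DNMT3A1 over DNMT3A2 was -1.86 ± 0.188 for AOC1, -1.64 ± 0.503 for TMEM176A and -1.87 ± 0.386 for TMEM176B (SE, adjusted p = 4.52e-10, 0.00525 and 9.24e-05). For TMEM176A it missed the threshold without DNMT3A1 replicate 4 (-1.11, adjusted p = 0.0627). The ubiquitin ligase RNF144A reached 1.01, 0.543, 1.5 and 1.07 CPM in DNMT3A2, beside 2.5 ± 0.0771 CPM in WT (SD, n = 4) and 0.211 ± 0.211 CPM in DNMT3A1 (SD, n = 3). FCHO1, an early factor of clathrin-coated pits, and the F-box gene FBXW10B did not differ between the isoform lines past the threshold. Reads of FBXW10B and ZXDA are uncertain, since each has a near-identical copy in the genome.

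MORN3 and PMFBP1, grouped here as genes known from sperm, were both higher in DNMT3A1 than in DNMT3A2. SOHLH1 and DYNC1I1, described above with germ cells and testis, were placed in other groups and stayed near 0 in both lines. PMFBP1 (chr16:72112157-72176878), needed to couple the sperm head to the tail, had 4.69, 4.50, 3.97 and 3.86 CPM in WT, 0.617, 0.381, 0.330 and 0.694 CPM in the knockout, 5.03, 4.17 and 4.50 CPM in DNMT3A1 and 0.464, 0.860, 0.765 and 0.533 CPM in DNMT3A2. DNMT3A1 overlapped WT (0.14 ± 0.127, log2, SE, adjusted p = 0.332) and DNMT3A2 overlapped the knockout (0.35 ± 0.258, log2, SE, adjusted p = 0.240). The isoform lines differed by 2.78 ± 0.181 (log2, SE, adjusted p = 2.22e-14). MORN3 was at 19.4, 19.7, 18.0 and 17.3 CPM in WT, 1.14, 1.20, 1.62 and 1.09 CPM in the knockout, 6.64, 5.32 and 5.69 CPM in DNMT3A1 and 3.79, 3.39, 3.31 and 3.29 CPM in DNMT3A2, a partial return in both lines that differed by 0.74 ± 0.107 (log2, SE, adjusted p = 4.27e-07). Of the non-coding members, ENSG00000255864 was at 1.61 ± 0.179 CPM in WT (SD, n = 4), 0.176 ± 0.0602 CPM in the knockout (SD, n = 4), 0.239 ± 0.0139 CPM in DNMT3A1 (SD, n = 3) and 1.45 ± 0.355 CPM in DNMT3A2 (SD, n = 4). It lies 262223 bases from SOX5 on the same strand, and the means of its lines fell in the same order. The order was not resolved, since DNMT3A1 (0.230 to 0.255 CPM) lay within ΔDNMT3A (0.132 to 0.264 CPM). DNMT3A2 (1.18 to 1.93 CPM) overlapped WT (1.38 to 1.80 CPM). CRMA and LINC02675 stayed at 5.31% of WT or less in both lines.

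By chromosome, 11 of the 44 genes were on the X, or 2.54% of the 433 X-linked genes at 1 CPM or more in WT, beside 0.320% over all chromosomes. Among them are COL4A5, COL4A6, DIAPH2, RPS6KA6, ZC4H2, ZC3H12B, ZXDA and CSF2RA. Chromosome 7 followed with 6 of 679 genes (0.884%), and no member was on chromosomes 5, 6, 8, 13, 14, 15, 18 or 22. The median log2 fold change of all tested X-linked genes in ΔDNMT3A against WT was 0.00. Since the same libraries chose the genes, these shares are descriptions with no test. On the X, the members did not act alike in the isoform lines. COL4A5 and COL4A6 were at 43.9% and 37.5% of WT in DNMT3A2, whereas DIAPH2, RPS6KA6, ZC4H2, ZC3H12B, ZXDA and CSF2RA were at 12.5% of WT or less in both lines.

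**Figure D4:**
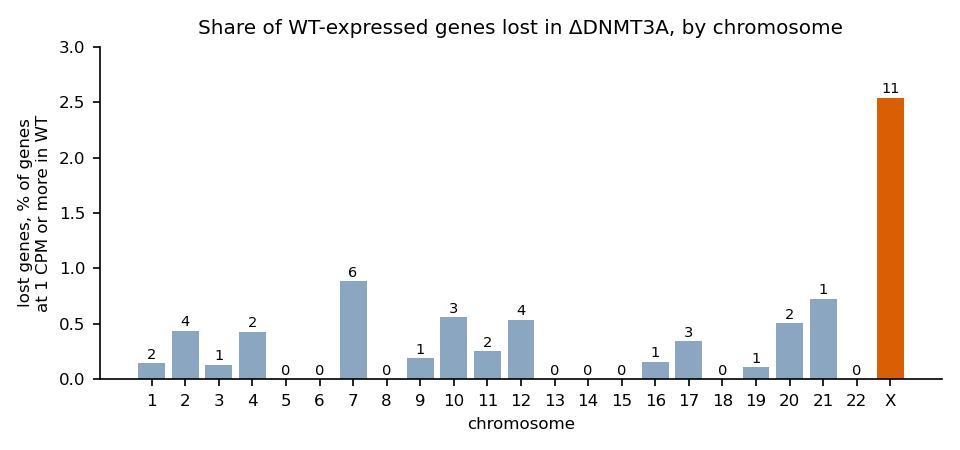
Lost genes as a percentage of the genes at 1 CPM or more in WT on each chromosome, with the number of lost genes above each bar. The X chromosome stands at 2.54% with 11 genes, and chromosome 7 is next at 0.884% with 6.

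The genes around the members were examined next. For each member, the 5 nearest genes on each side with at least 1 CPM in WT that were not members themselves were taken as neighbours, 8 to 10 for a member. The neighbours of a member spanned from 118 kb (MXRA8) to 15885 kb (DIAPH2), so many were far from it. Members that lie close together, such as COL4A5 and COL4A6, shared their neighbours. By the rule such genes lie above 12.5% of WT, so what the data add is how far above it they were. The median log2 ratio of ΔDNMT3A over WT over these neighbours ran from -0.65 (DYNC1I1) to 1.19 (DPYSL5), and its median over the members was -0.09. For 27 members no neighbour was at 50% of WT or less, and 3 members, SCN7A, ZXDA and FEZ1, had 3 such neighbours. The lowest was SPIN4, at -2.81 among the neighbours of ZC4H2, ZC3H12B and ZXDA. Those of ZXDA spanned 11705 kb and those of ZC4H2 and ZC3H12B 11724 kb, so SPIN4 need not lie close to them. DLX6-AS1 was at -2.41 among the neighbours of DYNC1I1. Within 1 Mb of another member lay COL4A5 and COL4A6, then AOC1, TMEM176A and TMEM176B, then ZC4H2 and ZC3H12B (331924 bases apart), and SOX5 with ENSG00000255864. TMEM176A and TMEM176B overlap on opposite strands, and the counting used strand.

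**Figure D5:**
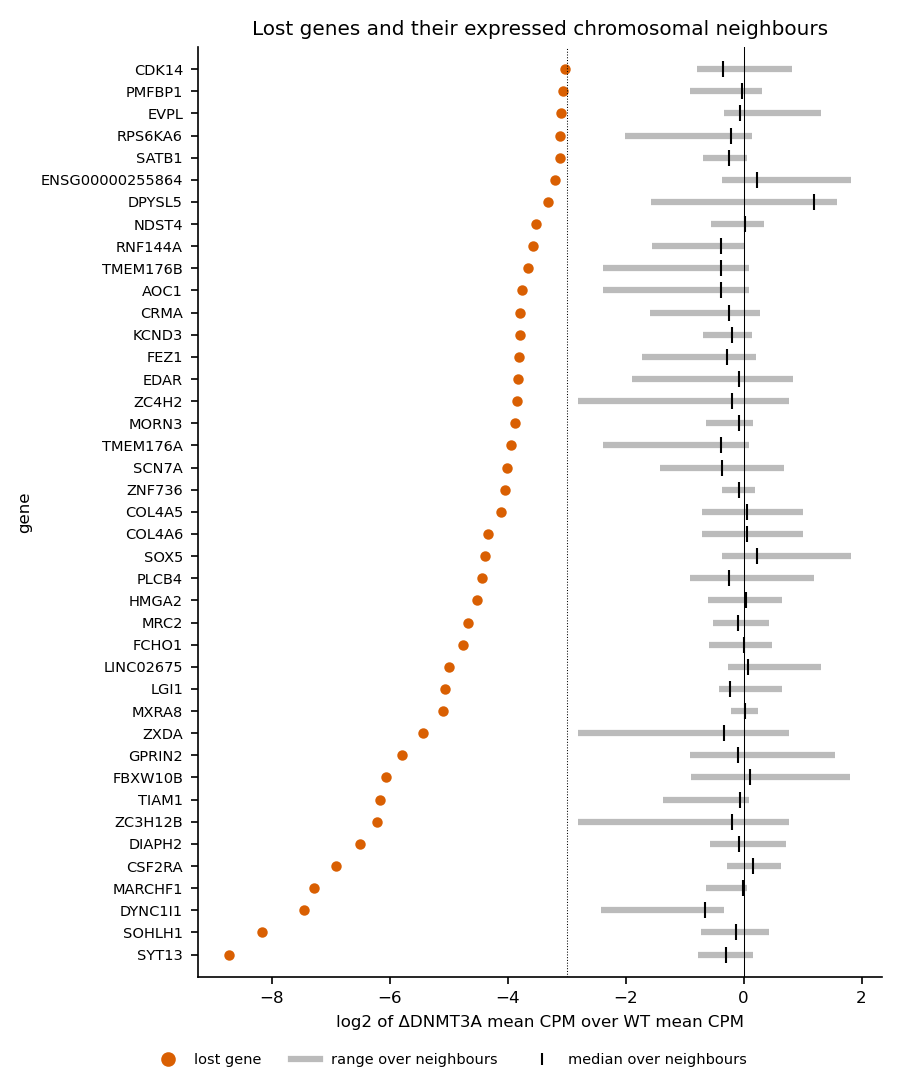
Log2 ratio of the ΔDNMT3A mean over the WT mean CPM (n = 4 each) for 41 of the lost genes (orange) and the range (grey bar) and median (black tick) over its nearest expressed neighbours, up to 5 on each side. The dotted line marks 12.5% of WT: by the rule the lost genes lie left of it and their neighbours right of it, and most neighbour medians lie near 0. Neighbours of a gene spanned from 118 kb (MXRA8) to 15885 kb (DIAPH2), and close genes shared them.

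In mouse colon epithelium, 37 genes of the same name were in the count tables, and 23 were expressed enough to be tested. None passed an adjusted p of 0.05 with edgeR, where 0.691% of all genes tested did, and 6 had an unadjusted p under 0.05 (3 higher and 3 lower in Dnmt3a ΔIEC). DESeq2 called 2 of them, Tmem176a and Sox5. The share of all genes was not counted for the unadjusted p or for DESeq2, so the counts of 6 and 2 are descriptions only. Sox5 ran from 0.762 to 2.05 CPM over the 4 Dnmt3a fl/fl mice and from 0.289 to 0.477 CPM over the 4 Dnmt3a ΔIEC mice, without overlap (log2 fold change -1.89 ± 0.382, SE, edgeR adjusted p = 0.0634). Tmem176a ran from 8.23 to 11.3 CPM and from 12.5 to 23.1 CPM, again without overlap and in the opposite direction to its human namesake (0.78 ± 0.154, log2, SE, edgeR adjusted p = 0.0569). The mouse counting used no strand, so reads in any overlap of Tmem176a with Tmem176b cannot be assigned to one of them. Aoc1 and Evpl were well expressed at 195 and 158 CPM in Dnmt3a fl/fl, with log2 fold changes of 0.02 ± 0.114 and 0.28 ± 0.155 (SE). Col4a5 and Col4a6 were under 0.2 CPM in both groups, and Sohlh1, Ndst4 and Gprin2 had 0 counts in the 8 mice, so that their counterparts could not be compared.

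The wider lists give the setting in the Caco-2 lines. In ΔDNMT3A against WT, 31.2% of all genes tested were higher and 28.8% lower. Of 14 tested enterocyte genes, 9 were higher and 3 lower in ΔDNMT3A than in WT, with a median log2 fold change of 0.17, and none is a member. Of 6 tested enteroendocrine genes, 1 was higher and 2 were lower, among them RFX6, a factor of endocrine cells just outside the WT limit of the set. RFX6 had 0.859 CPM in WT, 0.0632 CPM in the knockout, 0.0521 CPM in DNMT3A1 and 1.88 CPM in DNMT3A2, so that it too was above WT in DNMT3A2 and near the floor in DNMT3A1. Of 6 tested marker genes of other cell types, 1 was higher and 4 were lower in ΔDNMT3A.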

How the data were processed

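RNA-seq of 4 Caco-2 lines (15 libraries) and of mouse colonic epithelium (8 libraries) was analysed here. The authors deposited counts of read pairs per gene, whole numbers without normalization. Per the labels and the study's methods, the authors trimmed reads with Trim Galore 0.4.4, aligned them with STAR 2.5.2b to GRCh38 or GRCm38 and counted them with featureCounts (1.5.2 per the processing notes). Table headers record counting on the reverse strand for human and without strand for mouse. The third sample of DNMT3A1 was left out, with no counts used here. Reads carried no molecular identifiers, so intervals cover counting error only.

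CPM were computed on library totals. The 15 Caco-2 libraries entered 1 edgeR 4.0.16 fit in R 4.3.3 (filterByExpr over the 4 groups, TMM, quasi-likelihood F test, Benjamini-Hochberg adjustment over all genes, threshold 0.05), so that members passed the filter through WT; all 44 passed. The standard error is the log2 fold change over the root of F. DESeq2 1.42.0 was an alternative. A line with 1 to 3 counts of a member was given an exact counting interval (95%), and a line at 0 a bound at 3 counts where the other line was WT. Symbols came from GENCODE v44 (56948 of 58051 identifiers). Mouse genes were paired by symbol. Named were the 4 leading genes, the members with the highest WT level, those with the widest differences between isoform lines or the highest share of WT, those at the limits of the rule, near another member or in a list, and the targeted gene. Functional groups were written after values were seen, and the members and lists were chosen with earlier results of these data known. The single values of 3 members are not reported here, but they are counted in the totals. The fits were tested on simulated data. Alternatives were other normalizations, filters, limits, tools, 2 groups alone, a replicate block and leaving out libraries. Python 3.11.15 with pandas 2.3.3 and scipy 1.17.1 was used for tables and intervals.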

Additional observations from a re-analysis of the deposited data

Results flagged for a closer look

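In 92 groups of 4 libraries, with more than 3 counts of a gene in each, the highest or lowest library was compared with the others by Dixon's ratio. It stood apart in 7, and chance alone gives about 1 in 20. EDAR was at 4.84 CPM in DNMT3A2 replicate 2, and the others were between 4.33 and 4.38 CPM. COL4A5 was at 40.2 CPM in DNMT3A2 replicate 3, beside 38.4 to 38.5 CPM. In ΔDNMT3A, NDST4 was at 0.793 CPM in replicate 3 (others 0.463 to 0.498 CPM) and AOC1 at 0.860 CPM in replicate 4 (others 0.498 to 0.546 CPM). In WT, ZC4H2 was at 2.25 CPM in replicate 4 (others 2.79 to 2.85 CPM), PLCB4 at 9.28 CPM in replicate 1 (others 8.03 to 8.20 CPM) and CRMA at 2.76 CPM in replicate 3 (others 1.76 to 1.90 CPM).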

How the results depend on the processing

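The set held 44 genes, 117 with the limit set at a 4-fold loss and 26 at a 16-fold loss. Leaving out a WT or ΔDNMT3A library gave 44 to 47. In the first lane alone it held 50 genes, of which 42 were shared, and in the second 46, of which 43 were shared. With 25% of WT as the level of return, 15 genes in place of 9 reached it in DNMT3A2. With the whole WT mean, 3 did in DNMT3A2 and 0 in both lines. Without single isoform libraries these counts stayed at 2 (DNMT3A1), 9 (DNMT3A2) and 1 (both), and the genes at 12.5% or less in both lines were 20 to 21. Calls of DNMT3A1 against DNMT3A2 were 24 to 28 of the 44 without single libraries (against ΔDNMT3A 16 to 22 in DNMT3A1 and 26 to 30 in DNMT3A2, and against WT 42 to 43 and 39 to 42). They were 24 with DESeq2 and 21 with these 2 groups alone, where 24 of the genes passed the filter, which favours genes high in one of the 2 lines. The mouse count of 0 became 1 with DESeq2's size factors, 2 with no filter and 2 with DESeq2, and 0 to 1 without single mice.

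Replicate numbers did not pair the samples (correlations of same-numbered deviations from -0.0328 to 0.0553), and a fit with the replicate number as a block called 25 of the 44 genes in DNMT3A1 against DNMT3A2, with CDK14 as the added call. The direction between these lines changed without single libraries for 5 genes that never passed: ZNF736 (-1.33 to 0.85, log2), CSF2RA (-0.21 to 0.25), ZXDA (-3.35 to 1.88), DIAPH2 (-0.14 to 0.48) and LINC02675 (-0.99 to 0.18). The cause was not tested, but each held few counts in both lines. Depth limits the genes with 3 counts or fewer in a line.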
